A study of Mus musculus with 6 samples.

Results

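Type 2 innate lymphoid cells of the lung were examined in a single-cell RNA sequencing study of CD45+ cells, the leukocytes. A cell was taken as a member when its record held at least 500 expressed genes and at least 2 of the 8 transcripts Il1rl1, Gata3, Areg, Calca, Hs3st1, Il9r, Il13 and Il5, with Gata3 or Il1rl1 among them. Cells with any count of the T cell receptor chains Cd3e, Cd3d and Cd3g, the basophil and mast cell genes Mcpt8, Gata2 and Cpa3, the NK cell gene Ncr1, the plasmacytoid dendritic cell gene Siglech or the neutrophil gene Cxcr2 were left out. So were cells with 2 or more counts of the B cell gene Cd79a or the macrophage gene C1qa. By this rule 137 of 24474 cells were members, 66 of 11781 in the isotype library and 71 of 12693 in the agonist library. The counts of these genes chose the cells, so they are given as a description and support nothing.

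All mice were of a humanized PD-1 model, 6 to 8 weeks old, and had received an isotype control antibody or an agonist of PD-1, a receptor that inhibits activated lymphocytes. The study's title places the treatment in neutrophilic asthma and asks about T cells. Live CD45+ lung cells were sorted and labelled by cell hashing, in which tagged antibodies mark the sample of origin, and the 3 samples of each treatment were mixed before droplet sequencing on the 10x Genomics Chromium platform. No hashtag readout was used here, so a cell could not be assigned to a mouse.

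Type 2 innate lymphoid cells are lymphocytes without a rearranged antigen receptor that sit in barrier tissues. They respond to alarm signals from epithelium: interleukin 33 binds the receptor encoded by Il1rl1, interleukin 25 binds the one encoded by Il17rb, and thymic stromal lymphopoietin also activates them. The factor Gata3 maintains the lineage, and the cells secrete interleukins 5 and 13 and amphiregulin, known for eosinophil recruitment, mucus production and tissue repair in the lung. Interferons are known to restrain these cells, and PD-1 has been described on activated ones.

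The deposited data comprise 3 tables per treatment, whose labels name separate mice, with 6393 to 6749 cell records and 21556545 to 29749815 counts each. Tables of the same treatment shared 2373 to 2736 barcodes per pair (35.9% to 42.5% of the smaller table), against 3 to 13 for tables of different treatments. Each treatment was therefore taken as 1 pool, each barcode was used once, and no p-value or standard error between treatments could be computed. Of the member barcodes, 37 of 66 isotype and 22 of 71 agonist ones occurred in more than 1 table, and none occurred in both treatments. Intervals are exact 95% ones and cover counting error only, which makes them too narrow for genes whose counts sit in few cells. By the authors' total count per cell, isotype members had a median of 3492 (782 to 26258) and agonist members one of 2975 (720 to 17451). Isotype cells were thus somewhat deeper, with a median of 1649.5 against 1519 expressed genes.

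The members made up 0.560% of isotype cells (0.434% to 0.712%) and 0.559% of agonist cells (0.437% to 0.705%). The log2 ratio of the shares, agonist over isotype, was -0.002 with an interval of -0.51 to 0.50. By table, the share was 0.672%, 0.550% and 0.616% for isotype and 0.508%, 0.388% and 0.726% for the agonist, so the tables of the treatments overlapped. Those tables share cells and are not replicates. Cells that met the same marker requirement but held a Cd3 count numbered 158 and 112, a log2 share ratio of -0.60 (-0.97 to -0.25). NK cells, defined by Ncr1, had a ratio of -0.28 (882 and 784 cells), and basophils, defined by Mcpt8 with Gata2 or Cpa3, one of 0.38 (50 and 70 cells).

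The label was checked with genes that the rule did not use. Rora, a transcription factor needed to form these cells, was detected in 78.8% of isotype and 76.1% of agonist members, against 13.7% and 13.1% of NK cells and 8.0% and 10.0% of basophils. The interleukin 7 receptor gene Il7r was detected in 74.2% and 73.2% of members and in 3.29% and 4.97% of NK cells. The high-affinity interleukin 2 receptor chain Il2ra was detected in 74.2% and 78.9% of members, against 3.29% and 4.21% of NK cells. Rora therefore set members apart from NK cells and basophils, and Il7r and Il2ra set them apart from NK cells. In basophils Il7r had 37 and 41 counts over 50 and 70 cells, and Il2ra had 2 and 4 counts. None of the 3 genes set members apart from the Cd3-positive cells with the same markers. There Rora was detected in 68.4% and 72.3%, Il7r in 65.8% and 73.2% and Il2ra in 72.8% and 75%. Id2, the inhibitor of DNA binding common to all innate lymphoid cells, was detected in 77.3% and 78.9% of members and in 91.6% and 89.8% of NK cells.

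Other genes gave unequal shares in members and Cd3-positive cells. Arginase 1 (Arg1), which consumes arginine and is made by lung type 2 innate lymphoid cells, was detected in 53.0% and 60.6% of members but in 10.1% and 11.6% of the Cd3-positive cells. The stem cell factor receptor Kit was detected in 39.4% and 39.4% of members and in 8.86% and 6.25% of Cd3-positive cells. Ltb4r1, a receptor for the lipid leukotriene B4, was detected in 57.6% and 54.9% against 29.7% and 22.3%, and Ramp1, a subunit of the receptor for the neuropeptide CGRP, in 53.0% and 47.9% against 22.8% and 29.5%. The cysteinyl leukotriene receptor Cysltr1 was detected in 50% and 50.7% against 17.1% and 18.8%. The costimulator Icos ran the other way, at 63.6% and 69.0% of members against 82.9% and 89.3% of Cd3-positive cells. The Cd3-positive cells were deeper than members, with median totals of 4667 and 4662. The members thus carried the receptor and enzyme genes named above at shares close to each other in the 2 libraries. Other marker genes listed for these cells were rarer. Klrg1 was detected in 33.3% and 33.8% of members and Il17rb in 21.2% and 15.5%. Penk had no count in either library, and Ptger2 had none in the agonist library.

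**Figure D1:**
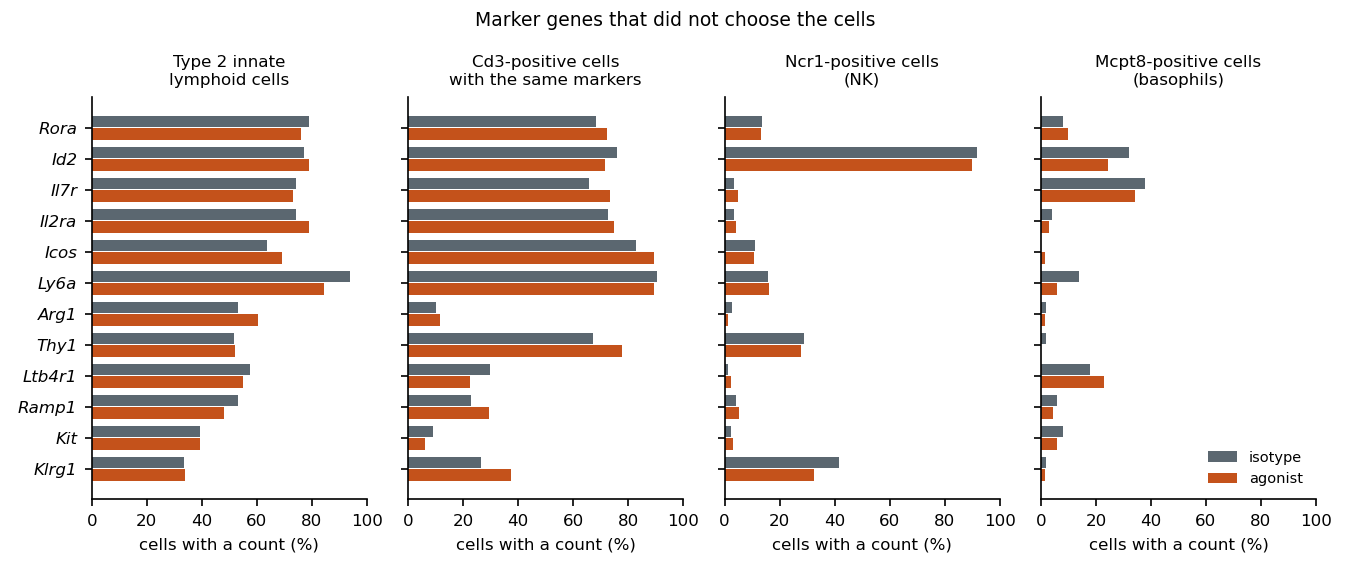
Share of cells (%) with at least 1 count of 12 genes outside the membership rule, in members, Cd3-positive cells with the same markers, NK cells and basophils; grey bars are the isotype library and orange bars the agonist library. Rora is at 78.8% and 76.1% in members and at 13.7% and 13.1% in NK cells, and Arg1 is at 53.0% and 60.6% in members and at 10.1% and 11.6% in Cd3-positive cells.

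Transcripts of other lineages were present. The T cell receptor alpha constant gene Trac was detected in 7.58% of isotype and 11.3% of agonist members, against 78.5% and 72.3% of Cd3-positive cells and 4.76% and 4.34% of NK cells. The beta constant gene Trbc2 was detected in 37.9% and 35.2% of members, above its 28.0% and 31.1% in NK cells, and the gamma constant gene Tcrg-C4 in 24.2% and 21.1%, above 6.33% and 6.25% in Cd3-positive cells. For Trbc2, 48.5% of the 31-base words of its longest transcript occur in another gene, so its count cannot be kept apart from that of Trbc1. Leaving out cells with any Trac, Trbc1, Trbc2, Cd4, Cd8a or Cd8b1 count kept 26 of 66 isotype and 28 of 71 agonist members. The type 17 and type 3 genes Il23r and Il22 were at 0 in both libraries, as were the epithelial genes Sftpc and Scgb1a1, the fibroblast gene Col1a1 and the endothelial gene Cdh5. In all, 15 isotype members (22.7%, interval 13.3% to 34.7%) and 21 agonist members (29.6%, 19.3% to 41.6%) held several genes of another lineage. These were macrophage genes in 7 and 10 cells, NK genes in 6 and 10, T cell genes in 6 and 3, dendritic cell genes in 4 and 4, B cell genes in 1 and 4, neutrophil genes in 2 and 2 and basophil genes in 2 and 0. A doublet caller marked 5 and 6 members. For some values below, the value without the cells that held other lineages' genes is given as well.

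The cells just inside and outside the rule were compared as a description. Members with exactly 2 of the 8 transcripts numbered 20 isotype and 19 agonist cells, and members with 3 or more numbered 46 and 52. Cells with only 1 of the transcripts, Gata3 or Il1rl1, and no exclusion gene numbered 123 and 152. Rora was detected in 16.3% and 17.8% of the latter, in 65.0% and 57.9% of members with 2 transcripts and in 84.8% and 82.7% of members with 3 or more. Il2ra was detected in 6.50% and 7.89%, 55.0% and 47.4%, and 82.6% and 90.4%. Median totals were 2744 and 2354.5 for cells with 1 transcript and 2021 and 3021 for members with 2. The exclusion genes removed 330 of 396 isotype and 273 of 344 agonist cells that met the marker requirement.

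The genes that stood highest in members over all other cells were ranked by the smaller of the log2 ratios of the libraries, among genes detected in at least 10% of the members of each. Since the cells were chosen from the same counts, this ranking is a description. Of the first 20 genes, 5 were part of the rule. The largest value belonged to Stab2, a scavenger receptor for hyaluronan (chromosome 10, 86841198 to 87008025 in GRCm38), with 41 counts in 17 isotype cells and 31 counts in 12 agonist cells and a log2 ratio of 8.04 and 7.42. Pcsk1, a convertase that cleaves prohormones and neuropeptides (chromosome 13, 75089826 to 75134861), followed with 41 and 31 counts in 22 and 20 cells and ratios of 7.30 and 7.18. Ccdc184 (6.92 and 6.49) and Dach2, a transcription cofactor (7.52 and 6.41), came next. Stab2 was detected in 0.340% and 0.638% of NK cells, and Pcsk1 in 0.113% of isotype NK cells and in no agonist one.

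The remaining leading genes outside the rule had ratios between 4.16 and 6.20. Rnf128, a ubiquitin ligase known to promote T cell anergy, was among the more abundant with 147 and 94 counts in 39 and 36 cells. Hlf, known from blood stem cells, Epas1, a hypoxia-inducible factor, and Klf5 are transcription factors among them. Epas1 had 47 and 38 counts in 26 and 25 cells, and Klf5 19 and 22 counts in 14 and 14 cells. Il17rb, the interleukin 25 receptor, was detected in 14 and 11 cells with ratios of 5.27 and 4.40. The Notch ligand Jag1, the phosphatase Ptpn13, the collagen-modifying enzyme Plod2, Tanc2 and Apbb2 were also among them.

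**Figure D2:**
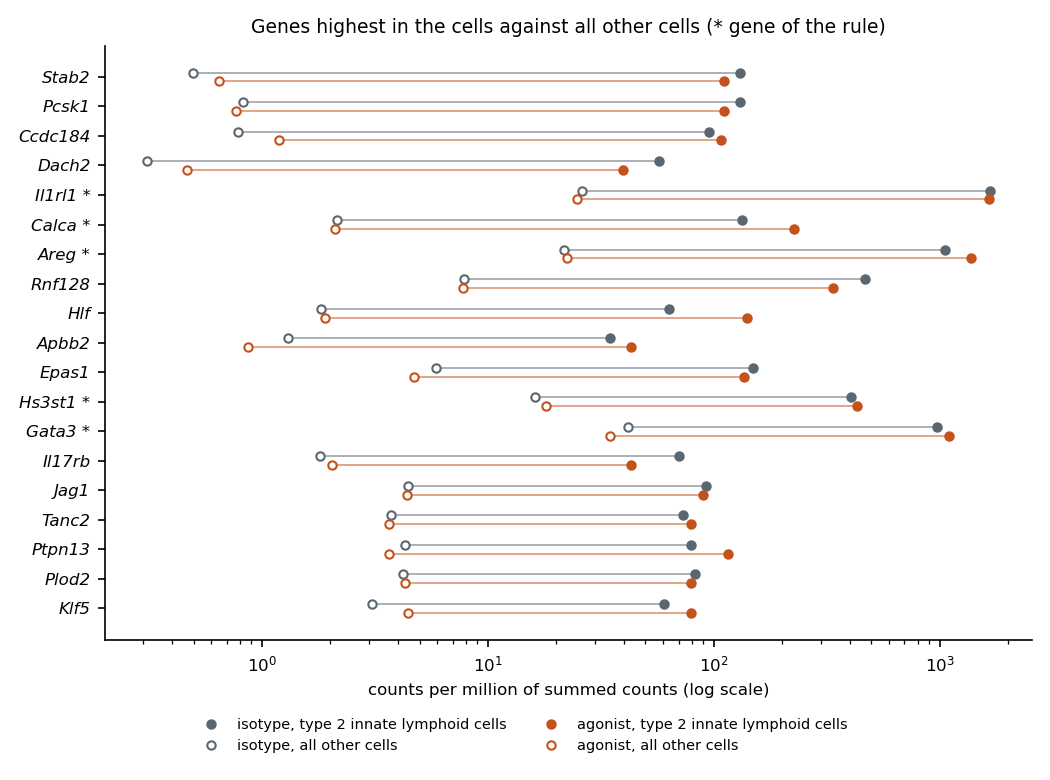
CPM values (log scale) of leading genes in members (filled points) and in all other kept cells (open points), grey for isotype and orange for the agonist library; an asterisk marks a gene of the rule. Filled points lie at least 4.16 log2 units to the right of the open points of the same library for every gene shown, with Stab2 at the top.

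Among the rule's own genes, the alarmin receptor Il1rl1 (chromosome 1, 40429570 to 40465415) had 525 counts in 62 of 66 isotype cells and 458 counts in 64 of 71 agonist cells. Gata3 (chromosome 2, 9857078 to 9890034) had 307 counts in 58 cells and 304 counts in 66 cells. Both genes were detected together in 54 and 59 cells. Their log2 ratios, agonist over isotype, were -0.06 (-0.24 to 0.12) and 0.12 (-0.11 to 0.36), so the intervals of both held 0. Il9r, the receptor for the growth factor interleukin 9, had 11 and 9 counts in 11 and 7 cells. Hs3st1, a heparan sulfate sulfotransferase, had 127 and 120 counts in 40 and 38 cells, a ratio of 0.05 (-0.32 to 0.43).

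Areg encodes amphiregulin, an epidermal growth factor family ligand that acts in tissue repair. It had 331 counts in 36 isotype cells and 383 counts in 41 agonist cells, a log2 ratio of 0.35 (0.13 to 0.56). The ratio ranged from 0.03 to 0.56 when single tables were left out. Isotype cells with a count held 1 to 58 counts and agonist cells 1 to 81, with a median of 3 in each, so the libraries overlapped over nearly the whole range. The 3 highest cells held 34.4% and 46.7% of the counts.

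Il5 encodes the growth factor of eosinophils and Il13 the cytokine of mucus production and airway hyperreactivity. Il5 had 45 counts in 12 isotype cells (18.2%) and 72 counts in 18 agonist cells (25.4%), a log2 ratio of 0.81 (0.26 to 1.39). Its 3 highest cells held 73.3% of the isotype and 47.2% of the agonist counts, and 23.8% of its 31-base words occur in another annotated gene. Il5 stood at 1.46 without the first isotype table (23 and 72 counts), at 0.53 without the second agonist table, and at 3.09 (4 and 35 counts) when cells with any T cell receptor, Cd4 or Cd8 count were left out as well. Il13 had 7 counts in 2 isotype cells, 6 of them in 1 cell, and 32 counts in 5 agonist cells with 3 to 10 counts each, a ratio of 2.33 (1.12 to 3.75) that became 4.89 when the third isotype table was left out. Il4, a cytokine made mostly by T cells and basophils, had 6 and 3 counts. Il5 and Il13 were detected together in 0 isotype and 4 agonist cells. In basophils Il13 was detected in 24% and 30% of cells, and Il5 in none. Basophil Il13 had 32 and 85 counts, a ratio of 1.41. In the Cd3-positive cells with the same markers Il13 had 161 and 74 counts, a ratio of -0.50 (-0.91 to -0.09). Il5 had 47 and 18 counts in those Cd3-positive cells, a ratio of -0.76 (-1.63 to 0.05).

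Il5 and Il13 lie near each other on chromosome 11, at 53720794 to 53725106 and 53631324 to 53634702. Their promoters are shown because Gata3, a marker of the rule, binds DNA words built around GATA. The last 100 bases before each gene's start in RefSeq (GRCm38.p6) are printed 5′ to 3′ on the gene's own strand, and capitals mark the word GATA with A or T before it and A or G after it, on either strand. The Il5 window is chr11:53720694-53720793 on the plus strand and the Il13 window chr11:53634703-53634802 on the minus strand.
Il5: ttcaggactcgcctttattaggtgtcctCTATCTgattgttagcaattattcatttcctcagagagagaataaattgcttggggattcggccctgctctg
Il13: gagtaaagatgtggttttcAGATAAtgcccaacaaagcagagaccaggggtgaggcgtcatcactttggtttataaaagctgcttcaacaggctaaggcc
Within 250 bases before the start, such a word was found for 5 of the 8 rule genes (Il1rl1, Calca, Il9r, Il13 and Il5), against 29.7% of 27025 genes. A match describes letters only.

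Calca encodes the neuropeptide CGRP, whose receptor subunit Ramp1 was described above. Calca had 42 counts in 11 isotype cells (16.7%) and 63 counts in 21 agonist cells (29.6%), a log2 ratio of 0.72 (0.14 to 1.32). Its ratio ranged from 0.15 to 0.75 when single tables were left out. The highest cell held 11 and 17 counts, or 26.2% and 27.0% of each library's total. Csf2, the growth factor GM-CSF for myeloid cells, had 47 counts in 9 isotype cells and 65 counts in 13 agonist cells, a ratio of 0.60 (0.04 to 1.18). In the isotype library 1 cell held 25 of the 47 counts, and without the highest cell of each library the ratio was 1.23. In the agonist library 1 cell with genes of another lineage held 16 of the 65 counts. Csf2 ranged from 0.13 to 0.79 when single tables were left out.

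Arg1 had 139 counts in 35 isotype cells and 242 counts in 43 agonist cells, a log2 ratio of 0.94 (0.63 to 1.25). The highest cell held 20 counts in the isotype library and 51 in the agonist library. Without the cells that held genes of other lineages the ratio was 0.19. Cxcl2, a neutrophil chemoattractant, ran the other way: 1096 counts in 36 isotype cells against 528 counts in 42 agonist cells, a ratio of -0.92 (-1.07 to -0.77), and of -0.76 without the cells with other lineages' genes. The median cell with a count held 11 Cxcl2 counts in the isotype and 5.5 in the agonist library. Cxcl2 was also detected in 70.0% and 65.7% of basophils. Its ratio was 0.73 in basophils, 0.92 in the Cd3-positive cells with the same markers, 0.14 in NK cells and -0.01 in all other cells.

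**Figure D3:**
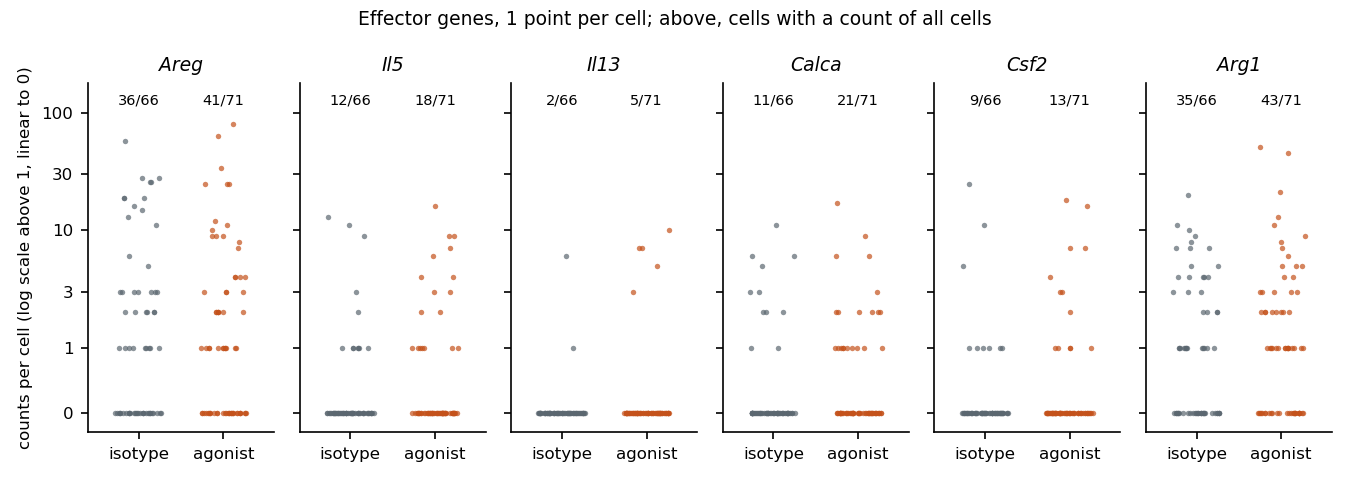
Counts per cell (logarithmic above 1, linear to 0) of Areg, Il5, Il13, Calca, Csf2 and Arg1, with 1 point for each of the 66 isotype cells (grey) and 71 agonist cells (orange) and the number of cells with a count above. Most cells are at 0 for Il5, Il13, Calca and Csf2, and the points of the libraries overlap for every gene shown; Il13 has counts in 2 isotype and 5 agonist cells.

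As a description, members differed among themselves in which of these products they carried. Areg, Il5, Il13 and Calca belong to the rule, so the cell numbers below were partly set by the choice of cells. None of Areg, Il5, Il13, Calca and Csf2 was detected in 22 isotype (33.3%) and 18 agonist cells (25.4%), and 3 or more were detected in 8 (12.1%) and 13 (18.3%). Areg and Il5 were found together in 7 and 14 cells, Areg and Arg1 in 18 and 30, and Il5 and Calca in 3 and 9. With each cell thinned to 1000 counts, which left 64 and 68 cells, Il5 was detected in 9.38% and 14.7%, Calca in 9.38% and 16.2%, and 3 or more of the 5 genes in 3.12% and 5.88%. After thinning, Il5 and Calca were together in 3 isotype and 0 agonist cells, so pairs of these genes were too few to compare at this depth.

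Several proliferation genes were detected together in a minority of cells, and whether these cells were dividing was not tested. At least 5 genes of a 28-gene proliferation list were detected in 15 isotype (22.7%) and 18 agonist cells (25.4%), and in 10.9% and 13.2% after thinning. Top2a, the topoisomerase of dividing cells, had 72 and 58 counts in 13 and 13 cells, a log2 ratio of -0.18 (-0.70 to 0.34). Pcna, the replication clamp, had 74 and 68 counts in 19 and 28 cells, a ratio of 0.02 (-0.48 to 0.51).

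Between treatments, 2179 genes had at least 50 counts over the members of both libraries. A gene was called when its log2 ratio reached 1 in size, a 2-fold difference, which 3.30% of genes met upward (72 genes) and 2.66% downward (58 genes). The median ratio of all genes was -0.02, with 1028 genes higher and 1151 lower. Each list below is read against these shares.

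Of the 6 rule genes measured at this depth none was past the fold, with a median of 0.24. Among 22 measured marker genes outside the rule, 12 were higher and 10 lower in the agonist library and the median was 0.09. Ramp3, a subunit that also pairs with the calcitonin receptor-like receptor, was the member past the fold (38 and 17 counts, -1.02, interval -1.94 to -0.16). It was singled out after its value was seen, and stood at -0.54 without the first agonist table. Rora stood at 0.29 (225 and 250 counts), Id2 at -0.18 (256 and 205), Il7r at 0.04 (196 and 183) and Icos at 0.18 (156 and 161). Ly6a, a surface antigen of activated lymphocytes, had 1170 and 827 counts in 62 and 60 cells and a ratio of -0.36 (-0.49 to -0.23), and 22.1% of its 31-base words occur in other genes.

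Receptors for cytokines were measured for 16 genes of a 30-gene list, with 11 higher, 5 lower, none past the fold and a median of 0.17. Il2ra stood at 0.23 (217 and 232 counts), the shared interleukin 2 and 15 receptor chain Il2rb at 0.61 (111 and 154 counts, interval 0.25 to 0.97) and the interferon gamma receptor Ifngr1 at 0.34 (117 and 135 counts). In the isotype library 1 cell held 24.3% of the Il2rb counts. The Il2rb ratio ranged from 0.13 to 0.75 when single tables were left out and from -0.19 to 1.63 over all settings tried. Of the 18 measured transcription factors, 8 were higher and 10 lower, with a median of -0.02. Nfkb1, a subunit of NF-kB, stood at 0.04 (276 and 258 counts), Ets1 at 0.22 (189 and 200) and Bhlhe40, which sustains cytokine production in lymphocytes, at 0.32 (237 and 269). Klf2, a factor of lymphocyte quiescence and recirculation, was the factor past the fold, at 1.43 (20 and 49 counts), and was singled out after its value was seen. A single cell held 40.0% of its isotype counts, the ratio was 0.86 without the third agonist table, and 2 and 3 counts were left without the cells with genes of other lineages.

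Receptors for neuropeptides, lipids and hormones gave 5 higher and 7 lower of 12 measured, with a median of -0.12. The proton-sensing receptor Gpr65 stood at 0.28 (86 and 95 counts), Ltb4r1 at -0.41 (92 and 63), Cysltr1 at 0.12 (71 and 70) and Ramp1 at -0.04 (78 and 69). Besides Ramp3, the prostaglandin E2 receptor Ptger4 was past the fold at 1.17 (19 and 39 counts), with 27.1% of its words shared with another gene and a ratio of 0.54 without the third agonist table. Homing and residency genes gave 12 higher and 3 lower of 15, with 1 past the fold upward and a median of 0.16. Rgs1, a regulator of chemokine receptor signalling, stood at 0.16 (373 and 380 counts), the chemokine receptor Ccr2 at -0.03 (257 and 229) and the integrin Itgb7 at -0.26 (179 and 136). Ptger4 was singled out after its value was seen.

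Among 14 measured secreted effectors, 8 were higher and 6 lower, with a median of 0.10. Past the fold were Lif, a cytokine of the interleukin 6 family, at 1.02 (19 and 35 counts), and the chemokines Ccl3 at -1.97 (73 and 17) and Ccl4 at -1.39 (130 and 45). Lif stood at 0.39 without the second isotype table. Ccl3 sat in 3 isotype and 7 agonist cells, and 1 isotype cell held 49.3% of its counts; without the first isotype table it stood at -1.0 and without the second agonist table at -3.79. Ccl4 stood at -0.79 without the second isotype table and -0.997 without the first. Without the cells with genes of other lineages Ccl4 had 4 and 4 counts. Immediate early genes gave 13 higher and 11 lower of 24, none past the fold, with a median of 0.08. Junb, an AP-1 subunit, had 972 and 1025 counts, Nfkbia, the inhibitor of NF-kB, 628 and 443, and Zfp36, which destabilises cytokine messages, 531 and 393, at ratios of 0.21, -0.37 and -0.30. Of the 9 measured genes of lipid and glucose metabolism, 2 were past the fold upward. These were the fatty acid-binding protein Fabp5 at 2.46 (16 and 80 counts in 8 and 7 cells, 41.2% of the agonist counts in 1 cell) and the polyamine enzyme Odc1 at 1.0 (34 and 62 counts, with 52.0% of its words shared). Fabp5 had 2 and 2 counts without the cells with genes of other lineages, and stood at 3.1 without the second isotype and 1.79 without the third agonist table. Odc1 stood at 0.58 without the third agonist table.

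Genes of the PD-1 pathway were near the limit of detection. Pdcd1, which encodes PD-1, had 3 counts in 3 isotype cells (4.55%) and 9 counts in 5 agonist cells (7.04%), against 27.8% and 17.9% of the Cd3-positive cells with the same markers and 3.17% and 3.19% of NK cells. The level in members was thus not separable from that in NK cells at this depth, and how far reads of the humanized receptor reach this mouse gene was not tested. The ligand PD-L1 (Cd274) had 45 counts in 20 isotype cells and 22 counts in 13 agonist cells, a log2 ratio of -0.90 (-1.70 to -0.13), with 14.6% of its words shared with another gene. Cd274 stood at -0.46 without the second isotype table, and at 0.74 (7 and 12 counts) when cells with any T cell receptor, Cd4 or Cd8 count were left out as well. The other ligand, PD-L2 (Pdcd1lg2), had 11 and 12 counts in 9 and 9 cells. Over the 9 measured checkpoint and costimulatory receptors 6 were higher and 3 lower, none was past the fold and the median was 0.18. Ctla4, an inhibitory receptor, stood at -0.82 (72 counts in 12 isotype cells, 37 in 11 agonist cells), and Klrg1, an inhibitory receptor of mature cells, at -0.15 (44 and 36). Ctla4 stood at -0.26 without the second isotype table and -0.17 without the first agonist table, and at 0.066 when the record with the lowest total was kept for each repeated barcode. Tnfrsf9, the costimulator 4-1BB, had 2 isotype and 31 agonist counts in 2 and 11 cells, and the log2 ratio of 4.09 became 1.28 when the second isotype table was left out, which replaced the counts by 11 and 31. It had too few counts for the list's summary and was picked after its value was seen.

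Genes of the type II interferon response were lower in the agonist library for 17 of the 20 measured, with a median log2 ratio of -0.57 against -0.02 for all genes. This list held 23 genes that interferon gamma is known to induce: guanylate-binding proteins and immunity-related GTPases, which attack vacuoles of intracellular microbes, and the immunoproteasome and peptide transporter of class I presentation. Past the fold downward were 5 of the 20 genes, Gbp2, Gbp4, Gbp7, Iigp1 and Irgm1, against 2.66% of all genes. Past the fold upward was 1, the myeloid and B cell factor Irf8. The list had 3325 counts in the isotype library and 2336 in the agonist library. It was chosen with earlier results of these data known, and which interferon, if any, acted on these cells was not tested.

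Gbp2 (chromosome 3, 142620602 to 142638008) had 152 counts in 43 of 66 isotype cells (65.2%) and 44 counts in 24 of 71 agonist cells (33.8%). Its log2 ratio was -1.65 (-2.17 to -1.16), and it ranged from -1.83 to -1.11 when single tables were left out. Cells with a count held 1 to 19 counts in the isotype and 1 to 8 in the agonist library. Gbp4 (chromosome 5, 105115767 to 105139586) had 139 counts in 47 isotype cells and 45 counts in 24 agonist cells, a ratio of -1.49 (-2.01 to -0.996), though 22.7% of its words are shared with related genes. After thinning to 1000 counts, Gbp2 was detected in 29.7% of isotype and 16.2% of agonist cells and Gbp4 in 34.4% and 14.7%. The agonist library thus had a smaller share of cells with these transcripts, before and after thinning, and the median cell with Gbp2 held 1 count against 2.

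Gbp7 had 84 and 34 counts in 33 and 21 cells (-1.17), Iigp1 96 and 38 counts in 26 and 14 cells (-1.20) and Irgm1 65 and 29 counts in 29 and 18 cells (-1.03). Ifi47, another immunity-related GTPase, stood at -0.80 (117 and 61 counts) and Tgtp2 at -0.62 (130 and 77), but 94.7% of the words of Tgtp2 are shared with a near copy. In class I presentation, the transporter Tap1 stood at -0.60 (107 and 64 counts), the immunoproteasome subunit Psmb8 at -0.41 (140 and 96), Psmb9 at 0.08 (81 and 78) and beta-2 microglobulin B2m at -0.16 (1569 and 1280). The feedback inhibitor Socs1 had 25 and 33 counts. Irf8 had 43 counts in 16 isotype cells and 79 in 18 agonist cells, a ratio of 1.01, with 41.9% of the isotype counts in 1 cell, and the ratio was 0.37 without the second agonist table. Of the genes past the fold downward, Iigp1 stood at -0.95 and Irgm1 at -0.68 without the second isotype table, and Gbp7 at -0.86 without the second agonist table.

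The interferon promoters are shown because they were searched for DNA words known to bind interferon-activated factors. The interferon-stimulated response element was searched as GAAA, any 2 bases and GAAA, and the gamma-activated site as TTCNNNGAA, on both strands of the 250 bases before each RefSeq start (GRCm38.p6). Capitals mark either word, and sequences run 5′ to 3′ on the gene's strand. The last 100 bases are given for Gbp7 (chr3:142530236-142530335, plus), Igtp (chr11:58199456-58199555, plus) and Ifi47 (chr11:49076487-49076586, plus). For Gbp2 (chr3:142620594-142620623, plus) and Irgm1 (chr11:48871428-48871457, minus), whose windows overlap the GENCODE gene, 30 bases around the word are given.
Gbp2: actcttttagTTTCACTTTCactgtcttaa
Irgm1: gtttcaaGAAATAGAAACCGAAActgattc
Gbp7: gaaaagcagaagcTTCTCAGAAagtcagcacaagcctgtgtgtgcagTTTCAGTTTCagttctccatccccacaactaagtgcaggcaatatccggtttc
Igtp: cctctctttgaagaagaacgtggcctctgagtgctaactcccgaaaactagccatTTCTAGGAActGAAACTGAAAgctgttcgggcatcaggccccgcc
Ifi47: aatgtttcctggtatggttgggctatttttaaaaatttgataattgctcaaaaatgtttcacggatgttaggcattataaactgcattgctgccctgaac
In Gbp2 and Gbp7 the response element lies on the opposite strand, and in Irgm1 a pair of response elements overlap. Ifi47 held neither word in the window, which says only that these letters are not there.

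Of 17 interferon list genes with a RefSeq window, 10 held the response element (Gbp2, Gbp3, Gbp7, Igtp, Irgm1, Irgm2, B2m, Socs1, Tgtp1 and Tgtp2), against 3.46% of 27025 genes. The gamma-activated word was found for 8 of 17, against 8.13% of all genes. The genes with the response element did not all have low ratios: Gbp2, Gbp7 and Irgm1 were past the fold, Igtp stood at -0.53 (62 and 39 counts), B2m at -0.16 and Socs1 at 0.54.

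**Figure D4:**
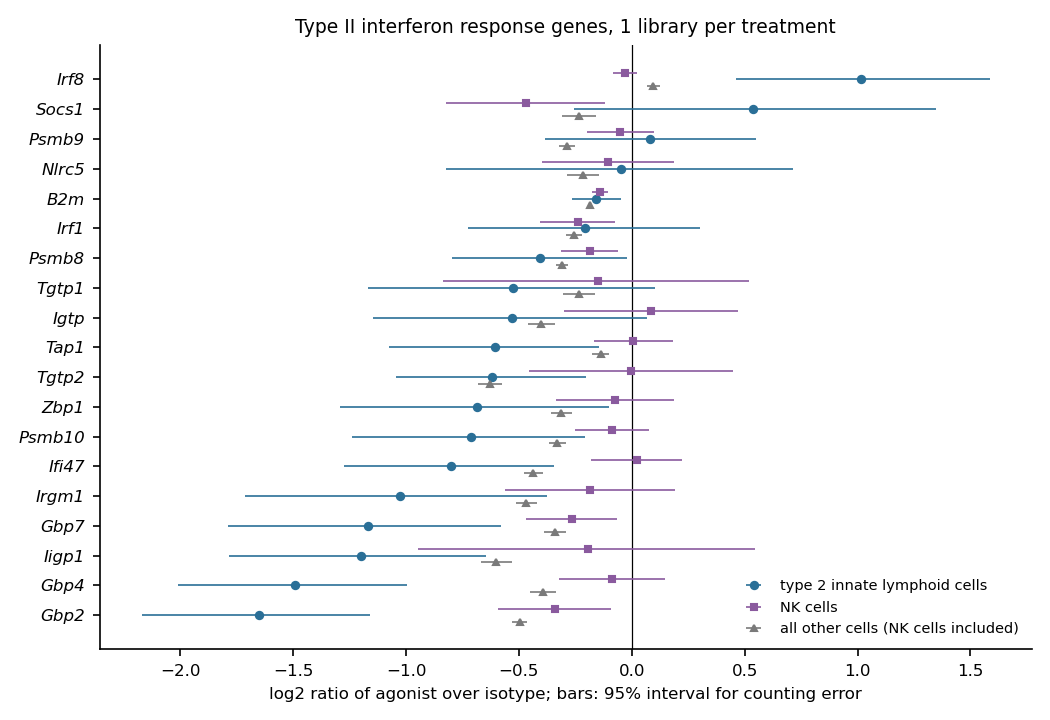
Log2 ratio of agonist over isotype for interferon list genes with at least 50 counts in members, in members (blue circles), NK cells (purple squares) and all other kept cells, NK cells included (grey triangles), with 95% intervals for counting error. Members lie left of 0 for most genes shown, with Gbp2 at -1.65 in members, -0.34 in NK cells and -0.50 in all other cells.

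The same list was lower in other cells of the agonist library too. Over all other kept cells 22 of 23 genes were lower with a median of -0.31, in NK cells 19 of 23 with a median of -0.13, and in the Cd3-positive cells with the same markers 16 of 22 with a median of -0.11. In basophils 4 of 7 were lower with a median of -0.03. The medians of all measured genes were -0.01 in all other kept cells and -0.02 in NK cells. They were -0.04 in the Cd3-positive cells and 0.11 in basophils, where 525 of 1359 genes were lower. For Gbp2 the ratio was -0.50 in all other cells, -0.34 in NK cells, -0.30 in basophils and -0.08 in the Cd3-positive cells. With 1 pool per treatment the difference between cell types could not be tested against variation between mice.

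Per member cell, the list without B2m made up 46.6 counts per 10000 at the median of the isotype cells (range 5.41 to 216) and 32.2 at that of the agonist cells (6.37 to 227). The ranges therefore covered each other almost wholly, while the middle of the agonist cells lay lower. Without cells that held genes of other lineages the medians were 45.7 (51 cells) and 31.8 (50 cells), and in the cells that held them 56.0 (15 cells) and 32.2 (21 cells). At least 3 of 8 interferon genes were detected in 51 isotype (77.3%) and 34 agonist cells (47.9%), and in 28.1% and 13.2% after thinning. In the cells without other lineages' genes 14 of 17 measured list genes were lower, with a median of -0.39. There Gbp2 stood at -1.86 (92 and 23 counts), whereas Irgm1 stood at 0.086 (26 and 25 counts) and Irf8 at -0.15 (11 and 9 counts).

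**Figure D5:**
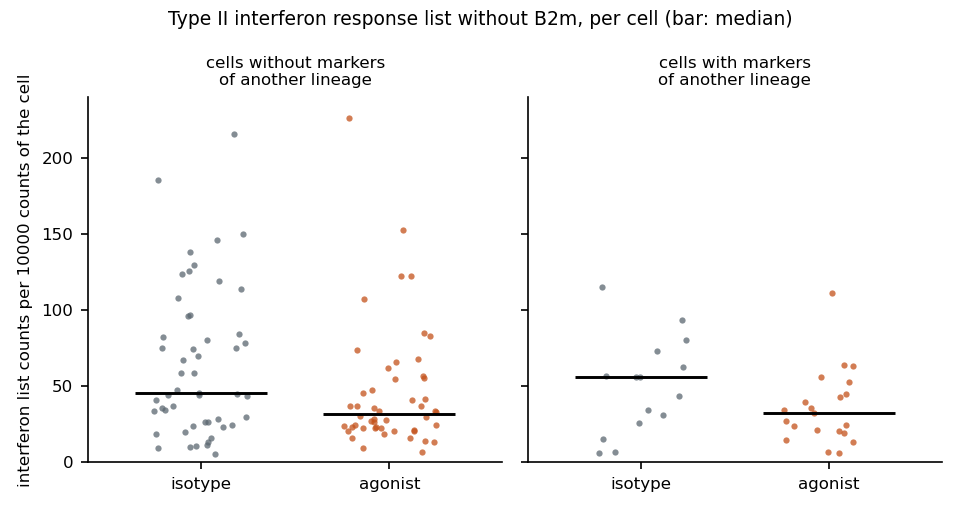
Counts of the interferon list without B2m per 10000 counts of each cell, for members without (left) and with (right) genes of another lineage; grey points are isotype cells, orange points agonist cells and bars are medians. The medians are 45.7 and 31.8 on the left and 56.0 and 32.2 on the right, and the points of the libraries overlap.

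Between libraries, the 8 genes in each direction whose intervals lay farthest from 0, with no cell holding 25% or more of the counts, were named. Highest in the agonist library stood Satb1, a chromatin organiser of lymphocytes (chromosome 17, 51736187 to 51833290), with 39 counts in 23 isotype cells and 88 counts in 41 agonist cells, a log2 ratio of 1.31 (0.75 to 1.89). The forkhead factor Foxn3 had 29 and 68 counts in 21 and 37 cells (1.37, interval 0.72 to 2.05). Ratios in NK cells were 0.03 for Satb1 and 0.13 for Foxn3. Both genes were spread over many cells, and no cell held more than 15.4% of the Satb1 counts. Without the cells with genes of other lineages Satb1 stood at 1.03 and Foxn3 at 0.79. Satb1 stood at 0.61 in members with 3 or more of the 8 transcripts, and at 0.46 (22 and 31 counts) when cells with any T cell receptor, Cd4 or Cd8 count were left out as well.

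Also higher were Arg1, given above, Stx4a, a syntaxin of vesicle fusion (14 and 36 counts, 1.5), the lysosomal saposin precursor Psap (221 and 330, 0.72), the protease Furin, which matures transforming growth factor beta (334 and 456, 0.59), the receptor adaptor Arrb2 (17 and 36, 1.22) and Hlf (20 and 39, 1.10). In all other cells the ratios were -0.06 for Stx4a, 0.21 for Psap, -0.05 for Furin, -0.11 for Arrb2 and 0.06 for Hlf. In the Cd3-positive cells with the same markers Psap stood at 0.66 and Furin at 0.40. Without the second isotype table Arrb2 stood at 0.71, and without the cells with genes of other lineages it stood at 0.68 and Stx4a at 0.88. Hlf stood at 0.85 without the first isotype table. Psap stood at -0.73 when cells with any T cell receptor, Cd4 or Cd8 count were left out as well.

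Lower in the agonist library, besides Gbp2, Irgm1, Ifi47 and Cxcl2, were Rnf213, a large ubiquitin ligase induced by interferon (82 and 31 counts in 30 and 20 cells, -1.27, interval -1.91 to -0.65), Golph3, a Golgi protein (38 and 12 counts, -1.53), and Samhd1, a nucleotide hydrolase that restricts viruses and is induced by interferon (395 and 210 counts in 56 and 54 cells, -0.77). Tsc22d3, a mediator of glucocorticoid action, had 65 and 29 counts in 30 and 22 cells (-1.03). In all other cells these ratios were -0.11 for Rnf213, -0.02 for Golph3, -0.07 for Samhd1 and 0.11 for Tsc22d3. Without the first agonist table Rnf213 stood at -0.97 and Tsc22d3 at -0.64.

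Of the 16 NK cell and group 1 innate lymphoid genes listed outside the rule 6 were measured, 3 higher and 3 lower, with a median log2 ratio of 0.07; 2 were past the fold upward, Gzma and Ccl5, and 1 downward, Gzmb, another granzyme, at -1.17 (47 and 19 counts). Gzma, a granzyme, had 35 counts in 4 isotype cells and 219 in 13 agonist cells (log2 ratio 2.78), and Ccl5, a chemokine of cytotoxic cells, 25 counts in 10 and 213 counts in 13 cells (3.23). In the agonist library 1 cell held 51.2% of the Ccl5 counts. Ccl5 stood at 1.82 without the second isotype table and 2.44 without the first agonist table, and Gzma at 1.29 without the second agonist table. Gzma was detected in 6.06% of isotype and 18.3% of agonist members. In basophils, which should lack it, the shares were 6.00% and 5.71%, and in the Cd3-positive cells with the same markers 13.9% and 14.3%. How much of this was free RNA was not tested. In members with 3 or more of the 8 transcripts the counts were 9 and 7 for Gzma and 24 and 7 for Ccl5. The part of these transcripts in the values above was not tested beyond the figures given without the cells that held other lineages' genes.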

How the data were processed

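Per the submitters' processing notes, the authors processed the reads with Partek on the mm10 assembly. Versions, aligner and counter remain not given in the sources used here. Per the file headers, the deposited tables hold, for each cell, estimated counts (expected counts that need not be whole) for 20882 genes, the authors' total count, the number of genes expressed, and mitochondrial and ribosomal reads as a percent. Each barcode was taken once per treatment, from the record with the highest total, and members were found by the rule in the report. The rule, markers and gene lists were chosen with earlier results of these data known. Counts were summed over the members of a treatment and rounded, and totals (314255 and 277235) were scaled by TMM (edgeR 4.0.16, run in R 4.3.3 for this step alone). At the 95% level, exact intervals were computed by Clopper-Pearson for ratios and shares and from the Poisson distribution for levels; a floor of 3 counts stood for 0. Genes with at least 50 counts over both libraries entered the comparison. The 6 labelled samples could not serve as replicates, because tables of a treatment share barcodes, so the planned values have no test. Scrublet (scanpy 1.11.5; rate 0.1, threshold 0.25) marked 7.83% and 9.04% of cells as doublets, which were kept. Of the gene names, 20460 matched 1 gene of the GENCODE annotation of GRCm38, and shared sequence was measured as the percent of 31-base words of a gene's longest transcript found in another gene. Named genes were those of the rule, up to 8 per list by total count with at least 20 counts, the 20 leading genes, and 8 per direction between libraries that are protein-coding with under 10% shared words; exceptions are marked, and a few genes that met this rule are not reported here. The code for ratios and intervals was run on simulated Poisson counts, which leave out the gathering of counts in few cells. A lineage was called present with at least 3 of its genes detected, or 5 for T and dendritic cells, a rule set after the data were seen.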

Additional observations from a re-analysis of the deposited data

How the results depend on the processing

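The share of members was within counting error of the main value under all 15 cell settings tried, from the table choice to the marker requirement. Without single tables the genes past the fold upward ranged from 44 to 69 and downward from 42 to 98, with 44 and 98 without the third agonist table. Requiring at least 3 markers gave 44 upward of 1435 genes. Excluding also cells with T cell receptor or Cd4 and Cd8 counts left 26 and 28 cells, 590 genes, 21 upward, 34 downward and 9 of 10 interferon genes lower. Without cells with genes of another lineage, a setting added after the data were seen, there were 37 upward and 37 downward of 1126 genes. A minimum of 20 counts gave 270 and 205 of 4825 genes, and no minimum 2460 and 2055 of 14000. Interferon genes lower numbered 16 to 18 without single tables. Log2 ratios past the fold that changed sign were: with at least 3 markers, Ccl5 -1.72, Gzma -0.31 and Irf8 -0.46; with Gata3 and Il1rl1 both required, Ccl4 0.21; with the further T cell exclusion, Ccl5 -1.84, Fabp5 -2.04, Irf8 -0.77, Pdcd1 -1.04 and Ptger4 -0.21; and without cells with genes of another lineage, Ccl4 0.14, Ccl5 -0.59, Irf8 -0.15 and Irgm1 0.086. The cause was not tested. No paired analysis was possible because the tables of a treatment share cells, so replicate numbers name no separate samples. At this depth, with 66 and 71 cells, genes under about 50 counts cannot be compared.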
